A study of Mus musculus with 24 samples.

Results

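Ribosome biogenesis and nucleolar factors were followed as a group of 57 genes in RNA from whole mouse lungs labelled control or conditional knockout (CKO) for Sin3a in the mesenchyme. Sin3a encodes a corepressor scaffold that brings histone deacetylases to chromatin. The genes were taken by symbol, each symbol matched a row of the gene table, and all 57 of the 51912 listed genes passed the filter on low counts in every comparison. They fall into factors of RNA polymerase I (5 genes), small nucleolar ribonucleoproteins or snoRNPs (8), RNA enzymes (2), assembly of the small or 40S subunit (19), assembly of the large or 60S subunit (18), and nucleolar proteins with several functions (5). There were 24 libraries, 4 labelled control and 4 labelled CKO at each of 3 stages. These were E16 (embryonic day 16), P0 (birth) and P3 (day 3 after birth). CKO lungs carried Tbx4rtta, tetocre and Sin3a F/F at every stage. By title, controls at E16 and P0 carried the same transgenes with Sin3a F/+, so they kept 1 floxed allele that Cre could delete. By title, P3 controls were Sin3a F/F and thus had the genotype of the P3 CKO lungs, so that the P3 groups rest on the words control and CKO alone. Dams of all groups were fed doxycycline from embryonic day 12. The Tbx4 element is known to drive the transactivator in lung mesenchyme, while the RNA came from all cells of the lung, and which cells lost Sin3a was not measured.

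Ribosome production starts in the nucleolus, where RNA polymerase I copies the ribosomal DNA into a long precursor. Guide snoRNPs then mark bases of this precursor by methylation and pseudouridylation, nucleases trim it, and a large set of helicases, GTPases and scaffold proteins folds and cuts it into the small and large subunits. The pathway is active in growing and dividing cells, which are abundant in the fetal lung, and many of its genes are known targets of MYC. SIN3A is known as a partner of MXD proteins, repressors that compete with MYC for the shared partner MAX at E-box sequences.

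Levels are given in CPM, that is, per 1 M counts of a library, and changes are log2 differences ± SE, with CKO minus control or the later minus the earlier stage. Totals ran from 27.02 to 36.35 M counts. A whole-gene Sin3a count did not part the genotypes, with 125 to 142 CPM in E16 controls and 105 to 144 CPM in E16 CKO lungs, 86.3 to 105 and 86.9 to 114 CPM at P0, and 88.1 to 102 and 99.7 to 107 CPM at P3. The Sin3a change averaged over stages was 0.05 ± 0.06 (adjusted p = 0.707, edgeR). Such a count can also take reads from exons outside the floxed part and from cells without Cre, and neither was measured. Loss of Sin3a was thus not shown, and the genotype is given as labelled throughout. At P0, control replicate 3 and CKO replicate 1 held 2105 and 1617 CPM of 12 summed thymocyte markers, against 14.7 to 43.5 CPM in the other 22 libraries, and P0 CKO replicate 3 held 357 CPM of summed cartilage markers. The 2 thymocyte-high libraries share a prefix of the sample identifiers, whose meaning the labels do not give. Markers of lung epithelium, mesenchyme and endothelium were detected in each of the 24 libraries. Xist passed 100 CPM in 1 of 4 E16 controls and 4 of 4 E16 CKO lungs, in 3 and 2 libraries at P0, and in 1 and 2 at P3.

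The mean level of the 57 genes was highest in E16 CKO lungs and lowest in the P0 and P3 controls. Averaged over the genes on the log2 CPM scale, libraries ran from 5.50 to 5.78 in E16 controls and from 5.80 to 6.05 in E16 CKO lungs. At P0 they ran from 4.68 to 5.35 in controls and from 5.31 to 5.59 in CKO lungs, and at P3 from 4.97 to 5.10 and from 5.18 to 5.47. The genotypes did not overlap at E16 or P3, and at P0 a single control, replicate 3 with its thymocyte markers, reached into the CKO range. By group means, 51 of the 57 genes were highest in E16 CKO lungs, 4 in E16 controls and 2 in P0 CKO lungs. Of the same genes, 32 were lowest in P0 controls, 22 in P3 controls, 2 in P0 CKO lungs and 1 in P3 CKO lungs. Such counts were not made for all genes, so how far the 57 differ from them in this is not known. At P0 each identifier prefix held 1 control and 1 CKO lung, and the mean was higher in the CKO lung of each, with 4.68 and 5.40, 5.12 and 5.46, 5.35 and 5.59, and 4.88 and 5.31 in control and CKO lungs. In whole-lung RNA, fewer cells with high levels and less RNA per cell cannot be told apart.

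**Figure D1:**
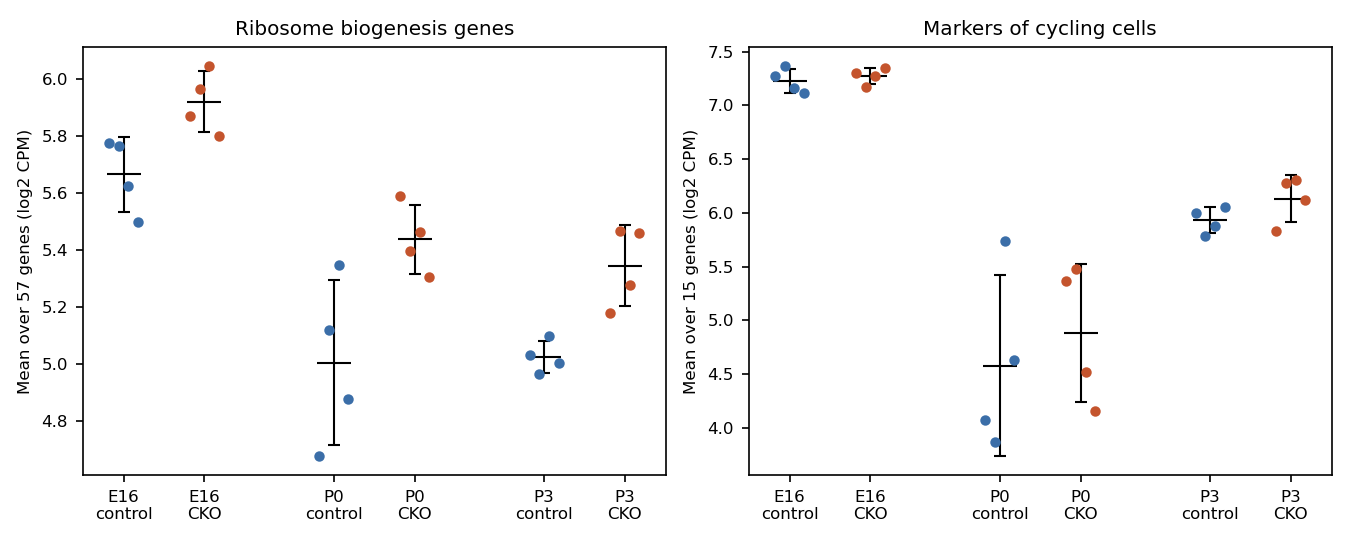
Mean log2 CPM per library over the 57 ribosome biogenesis genes (left) and over 15 markers of cycling cells (right), in control (blue) and CKO (red) lungs at E16, P0 and P3. Each point is a library, and bars are mean ± SD over 4 libraries. The ribosome biogenesis genes were higher in CKO libraries at each stage, with 1 P0 control reaching into the CKO range, while cycling markers overlapped between genotypes at each stage.

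Averaged over the 3 stages, 23 of the 57 genes rose in CKO lungs and none fell at adjusted p under 0.05 (quasi-likelihood test of edgeR, p adjusted by Benjamini-Hochberg over 18415 genes). Among all genes tested, 5.38% were called higher and 3% lower. Of the 57 genes, 56 had a positive change, and their median was 0.26 against -0.02 for all genes. At an unadjusted p under 0.05, 42 were higher, which was 73.7% of the members against 11.8% of all genes. The count called fell to 13 without the E16 libraries and to 9 without the P3 libraries, and it was 18 without the P0 libraries. It rose to 36 without the 2 libraries high in thymocyte markers and to 38 with the prefix of the sample identifiers as a block. Called under each of 38 alternatives were 8 genes, Rpp40, Rrp12, Rcl1, Pus7, Fbl, Nhp2, Nop16 and Ltv1. All but Nhp2 and Ltv1 headed the list of members, which was drawn up with earlier results of these data known. The alternatives refit the same data, and the share of all genes called under them is not given.

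Markers of the lung's own cell types had mostly negative values in the same comparison. The average change was negative for 5 of 5 epithelial markers (median -0.22, 0 called), 4 of 4 endothelial markers (median -0.22, 1 called lower) and 4 of 5 mesenchymal markers (median -0.19, 2 called lower), where 3% of all genes were called lower. Summed mesenchymal markers ran from 1013 to 1441 CPM in E16 controls and 922 to 1235 CPM in E16 CKO lungs, from 773 to 1544 and 871 to 1279 CPM at P0, and from 843 to 1274 and 741 to 1279 CPM at P3. Summed endothelial markers ran from 1250 to 1437 and 1068 to 1360 CPM at E16, from 1776 to 2941 and 1908 to 2297 CPM at P0, and from 2390 to 2660 and 1724 to 2659 CPM at P3. Summed epithelial markers ran from 3327 to 4704 and 2337 to 4550 CPM at E16, from 8674 to 14020 and 9273 to 11919 CPM at P0, and from 8364 to 11548 and 8062 to 10053 CPM at P3. These sums overlapped between genotypes at each stage, and no marker was at 0. Their part in the result was not tested.

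**Figure D2:**
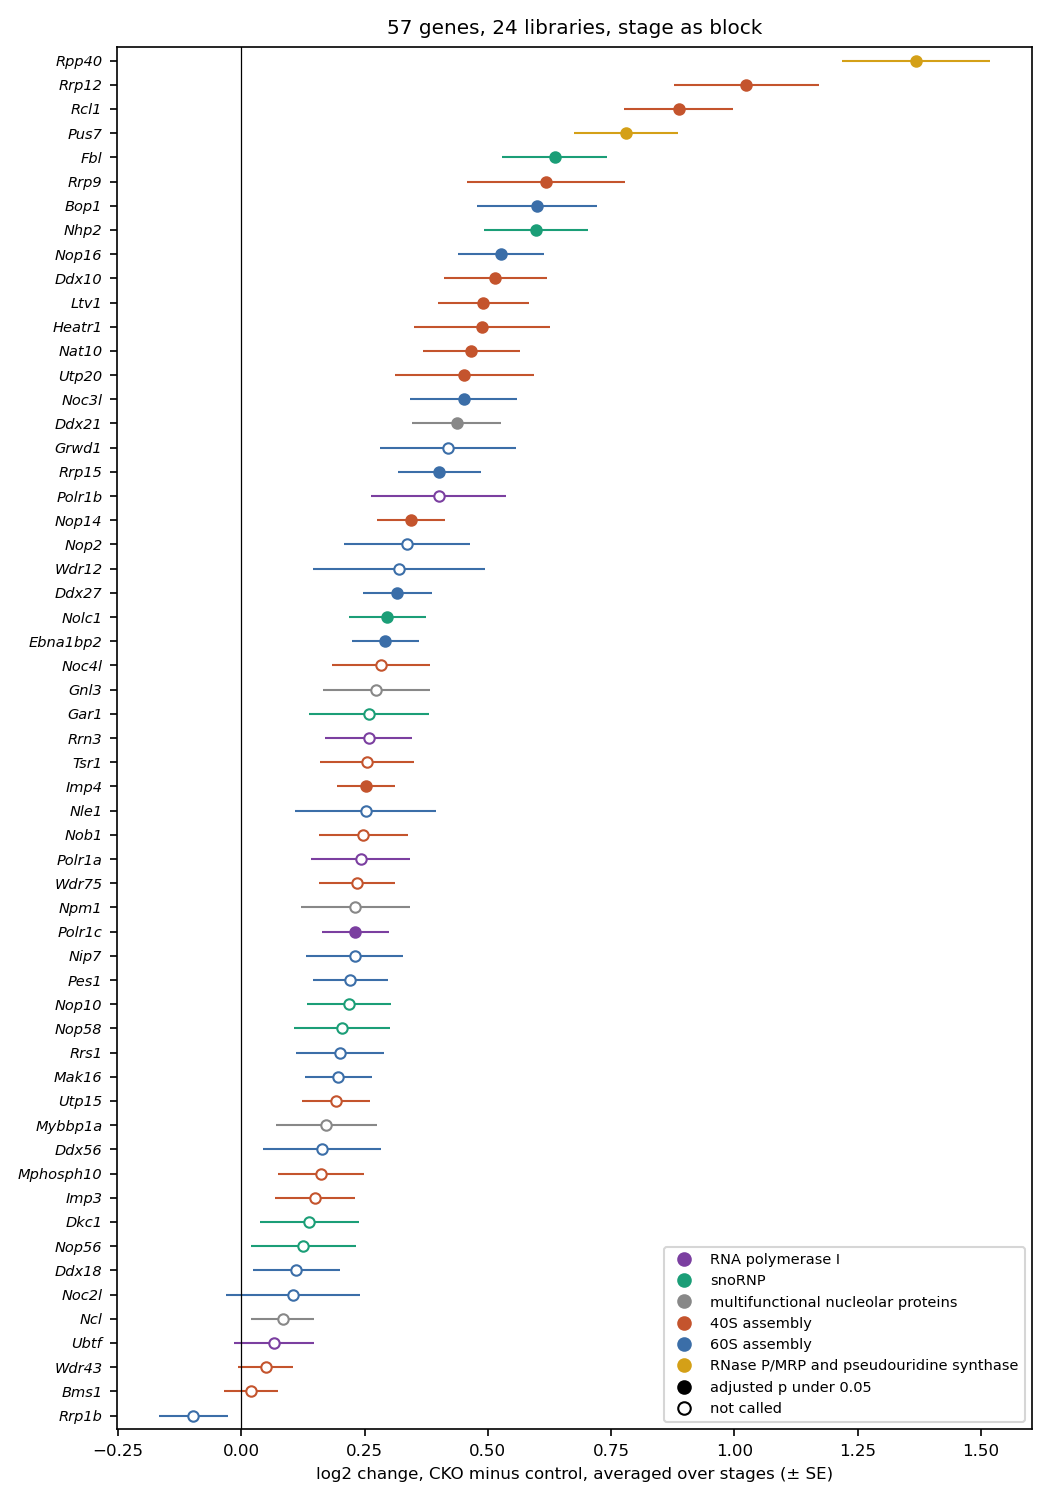
Log2 change of each of the 57 genes, CKO minus control averaged over the 3 stages in 24 libraries, with SE, ordered by size and coloured by role. Filled points had an adjusted p under 0.05. Changes ran from -0.10 for Rrp1b to 1.37 for Rpp40, and 56 of 57 lie above 0.

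At single stages, edgeR fits of the 8 libraries of a stage called none of the 57 genes, while other fits called some. At E16 edgeR called 0 of 57 genes, and 0% of the 16606 genes tested were called higher and 0.0181% lower. Of the 57, 53 had a positive change with a median of 0.23 against -0.01 for all genes, and 25 were higher and none lower at an unadjusted p under 0.05, against 6.57% and 3.96% of all genes. DESeq2 called 9 of them higher at E16 and limma-voom 0. Without E16 CKO replicate 4, the CKO library with the lowest mean level at that stage, edgeR called 5. With Xist as a covariate, since that marker divided the E16 groups unevenly, edgeR also called 0. At P0 edgeR called 0 of 57 where 0.0116% of 17198 genes were called higher and 0.0291% lower. There 54 changes were positive with a median of 0.38 against -0.02, 17 genes were higher and none lower at an unadjusted p under 0.05 against 3.46% and 2.98% of all genes, and DESeq2 called 4 and limma-voom 0. Without the 2 libraries high in thymocyte markers, and without these and P0 CKO replicate 3, edgeR called 0 at P0, and in a fit of all 24 libraries it called 7. At P3 edgeR called 0 of 57 where 0% of 17113 genes were called higher and 0.0117% lower. There 56 changes were positive with a median of 0.25 against -0.01, 28 genes were higher and none lower at an unadjusted p under 0.05 against 8.28% and 7.11%, and DESeq2 called 11 and limma-voom 0. Without P3 CKO replicate 1, the CKO library with the lowest mean level at that stage, edgeR called 19 of the 57 genes higher at P3, and in a fit of all 24 libraries it called 2. For DESeq2, limma-voom and the other alternative fits, the share of all genes called is not given. Their counts are thus not set against all genes.

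**Figure D3:**
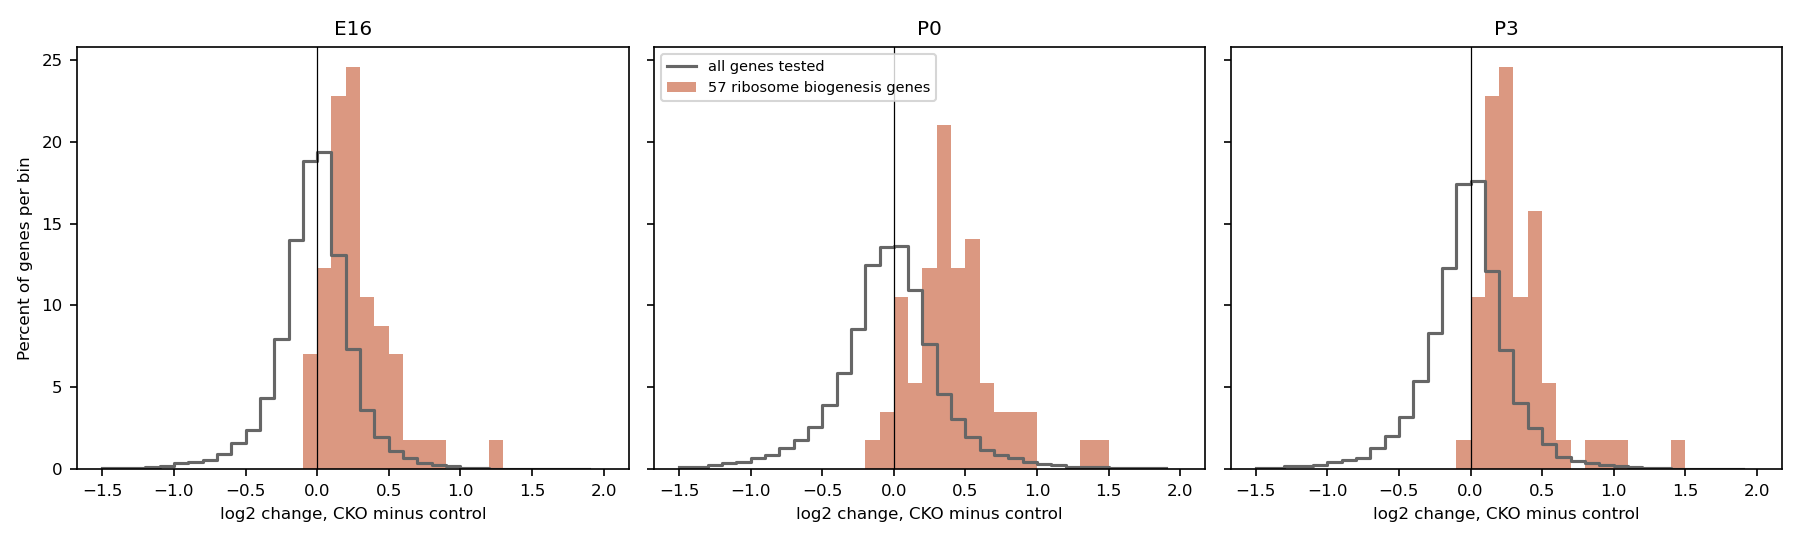
Distribution of log2 changes, CKO minus control, at E16, P0 and P3 for the 57 ribosome biogenesis genes (red bars) and for all genes tested (grey line), as percent of genes per bin. The medians of the 57 genes were 0.23, 0.38 and 0.25, and those of all genes -0.01, -0.02 and -0.01.

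The direction was shared by most of the genes at all stages. The change was positive at E16, P0 and P3 for 51 of the 57 genes, against 23.7% of all genes, and negative at all 3 for Rrp1b alone, against 26.1% of all genes. Every CKO library was above every control library for 13 of the 57 genes at E16, against 3.53% of all genes. That count was 10 at P0 against 2.75%, and 14 at P3 against 4.11%. The reverse, all CKO libraries below all controls, was seen for none of the 57 at any stage, against 2.22%, 1.85% and 3.34% of all genes. Only Rpp40 and Pus7 were free of overlap at all 3 stages, as were 0.261% of all genes. A set of 6 genes, Rrp12, Nop16, Fbl, Rpp40, Pus7 and Rcl1, headed the list of members, which was drawn up with earlier results of these data known, and 17 of the other 51 were called higher on average. Among those 51, 19 were higher at an unadjusted p under 0.05 (edgeR) at E16, 11 at P0 and 22 at P3, against 6.57%, 3.46% and 8.28% of all genes. The genes of the 51 with every CKO library above every control were 10 at E16, 4 at P0 and 9 at P3, and 0 at all 3 stages. All 6 leading genes were among those called under every alternative, but the alternatives refit the same data and give no separate support.

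Of the 5 factors of RNA polymerase I, 1 rose on average, against 5.38% of all genes, and the median change was 0.24. It was Polr1c, a subunit shared with RNA polymerase III, at 0.23 ± 0.07 (adjusted p = 0.0369, edgeR), and it was called in 25 of 38 alternatives. Polr1a, the largest catalytic subunit, measured 114, 92.1, 95.3 and 88.6 CPM in E16 controls and 108, 96.8, 82.6 and 96.3 CPM in E16 CKO lungs. Its P3 controls measured 59.2, 46.0, 54.3 and 46.7 CPM and its P3 CKO lungs 59.3, 68.7, 62.6 and 66.0 CPM. The genotypes overlapped at E16 and were apart at P3 by 59.2 against 59.3 CPM, and the average change of 0.24 ± 0.10 was not called (adjusted p = 0.151, edgeR). The catalytic subunit Polr1b (0.40 ± 0.14) and the initiation factor Rrn3 (0.26 ± 0.09) were not called either. Ubtf, an HMG-box protein that binds ribosomal DNA, had a change among the smallest of the 57, 0.07 ± 0.08.

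Of the 8 snoRNP genes, 3 rose on average, namely Fbl, Nhp2 and Nolc1, against 5.38% of all genes, and the median change was 0.24. Fbl (mm10 chromosome 7, 28169710 to 28179269) encodes fibrillarin, the methyltransferase of box C/D snoRNPs. It measured 39.9, 53.5, 55.3 and 31.6 CPM in P0 controls and 90.4, 95, 72.1 and 63.8 CPM in P0 CKO lungs. At P3 it measured 41.7, 33.1, 31.6 and 38.7 CPM in controls and 43.2, 59.6, 52.0 and 64.1 CPM in CKO lungs. All CKO libraries lay above all controls at both stages, while at E16 the range of 67.4 to 93.6 CPM in controls overlapped that of 92.3 to 149 CPM in CKO lungs. The average change was 0.64 ± 0.11 (adjusted p = 0.000676, edgeR). Its partners in the same particles, Nop56 and Nop58, changed by 0.13 ± 0.11 and 0.20 ± 0.10 and were not called. In the H/ACA particles, which pseudouridylate RNA, Nhp2 rose by 0.60 ± 0.11, while the synthase Dkc1 (0.14 ± 0.10), Gar1 (0.26 ± 0.12) and Nop10 (0.22 ± 0.09) were not called. Nolc1, a chaperone of snoRNPs, rose by 0.30 ± 0.08. Dkc1 was called in 2 of 38 alternatives, those without the libraries high in thymocyte or cartilage markers.

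Both RNA enzymes, which were among the genes that headed the list of members, rose on average, where 5.38% of all genes were called higher. Rpp40 (mm10 chromosome 13, 35893472 to 35906359, minus strand) encodes a protein subunit of RNase P and RNase MRP, which cut precursors of transfer and ribosomal RNA. It measured 7.93, 7.89, 7.63 and 7.43 CPM in E16 controls and 20.3, 18.9, 21.0 and 10.4 CPM in E16 CKO lungs. At P0 it measured 3.19, 4.27, 5.06 and 3.99 CPM in controls and 9.83, 15.2, 10.7 and 11.1 CPM in CKO lungs. At P3 it measured 5.04, 3.75, 6.53 and 4.43 CPM in controls and 6.66, 17, 10.7 and 18.4 CPM in CKO lungs. Each CKO library was above each control of its stage, with the narrowest gap at P3, where CKO replicate 1 lay just above control replicate 3. The log2 differences at E16, P0 and P3 were 1.21 ± 0.21, 1.49 ± 0.24 and 1.41 ± 0.31, and the average was 1.37 ± 0.15 (adjusted p = 9.17e-06, edgeR). Its exons share 80 bases with Gm48746 on the opposite strand, and reads from the 2 genes cannot be told apart without a stated strand.

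Pus7 (mm10 chromosome 5, 23740648 to 23783711, minus strand) encodes a pseudouridine synthase that acts alone, without a guide RNA. It measured 56.9, 57.5, 57.6 and 52.6 CPM in E16 controls and 85.4, 90.0, 79.6 and 68.5 CPM in E16 CKO lungs. At P0 the controls held 29.6, 34.0, 36.7 and 28.3 CPM and the CKO lungs 45.7, 73.5, 71.1 and 53.3 CPM. At P3 the controls held 34.6, 35.0, 40.9 and 33.9 CPM and the CKO lungs 43.0, 83.6, 56.6 and 84.7 CPM. The groups were apart at each stage, and at P3 the CKO lungs spread from just above the highest control to far above it. The average change was 0.78 ± 0.10 (adjusted p = 0.000107, edgeR).

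Assembly of the 40S subunit, the largest role group, held the largest number of called genes, 10 of 19 on average against 5.38% of all genes. The median change was 0.28, and Rrp12 and Rcl1 of this group were among the genes that headed the list of members. Rrp12, known in yeast for the export of both subunits from the nucleus, lies on mm10 chromosome 19 (41862851 to 41896173, minus strand). It measured 10.0, 20.3, 18.8 and 11.9 CPM in P0 controls and 53.5, 34.4, 38.9 and 24.3 CPM in P0 CKO lungs. At P3 it measured 13.8, 10.2, 11.6 and 12.3 CPM in controls and 17.2, 28.5, 19.1 and 26.9 CPM in CKO lungs. The groups were apart at both stages, and at E16 the lowest CKO library, with 20.1 CPM, lay below the highest control, with 22.6 CPM. The average change was 1.02 ± 0.15 (adjusted p = 0.000182, edgeR).

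Rcl1 (mm10 chromosome 19, 29101375 to 29143929, plus strand) encodes a factor that in yeast binds the GTPase Bms1 during the early cuts of the precursor. It measured 12.6, 14.7, 18 and 12.2 CPM in P0 controls and 35.0, 26.0, 27.9 and 21.8 CPM in P0 CKO lungs. At P3 it measured 12.6, 11.3, 12.5 and 12.1 CPM in controls and 17.7, 29.3, 22.8 and 28.6 CPM in CKO lungs. The groups did not overlap at either stage, and at E16 the CKO range of 23.5 to 41.4 CPM began below the highest control, at 23.9 CPM. The average change was 0.89 ± 0.11 (adjusted p = 3.26e-05, edgeR). Bms1 itself, the partner in yeast, measured 62.0 to 85.4 CPM in P0 controls and 71.7 to 76.1 CPM in P0 CKO lungs. Its average change of 0.02 ± 0.06 was among the smallest of the 57 genes and was not called.

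The other called 40S genes spread over early and late steps. Among factors of the early processome, the large particle that folds and cuts the nascent precursor, Rrp9 (0.62 ± 0.16), Heatr1 (0.49 ± 0.14), Utp20 (0.45 ± 0.14), Nop14 (0.34 ± 0.07) and Imp4 (0.25 ± 0.06) rose on average. Utp20 was called in 11 of 38 alternatives and Heatr1 in 31. Ddx10, a DEAD-box helicase, rose by 0.52 ± 0.10, with 46.1 to 52.4 CPM in E16 controls and 57 to 69.9 CPM in E16 CKO lungs. Its genotypes were also apart at P3, with 33.7 to 41.2 CPM in controls and 42.6 to 66.6 CPM in CKO lungs. They overlapped at P0, with 29.3 to 43.3 CPM in controls and 29.3 to 67.3 CPM in CKO lungs. Ltv1, which acts late on the small subunit, rose by 0.49 ± 0.09, and Nat10, which acetylates cytidine in ribosomal and transfer RNA, by 0.47 ± 0.10. The 9 genes of this group that were not called ran from 0.02 for Bms1 to 0.28 for Noc4l. They include Wdr43 (0.05 ± 0.06), Utp15 (0.19 ± 0.07) and Wdr75 (0.23 ± 0.08). They also include Nob1, the nuclease of the last cut towards the small-subunit RNA, with 0.25 ± 0.09, Imp3 with 0.15 ± 0.08, Mphosph10 with 0.16 ± 0.09 and Tsr1 with 0.26 ± 0.10. Nob1 measured 18.6, 23.0, 23.0 and 19.5 CPM in P0 controls and 36.3, 22.5, 25.4 and 27.5 CPM in P0 CKO lungs, which overlapped in a single CKO library. Wdr43 measured 58.2, 56.9, 67.8 and 49.0 CPM in P0 controls and 50.3, 52.8, 65.0 and 59.8 CPM in P0 CKO lungs, so that the CKO range lay within the control range.

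Of the 18 genes for assembly of the 60S subunit, 6 rose on average, against 5.38% of all genes, and the median change was 0.27. Bop1, the scaffold of the PeBoW complex, measured 18.4, 40.7, 33.7 and 25.7 CPM in P0 controls and 71.4, 48.7, 46.6 and 41.3 CPM in P0 CKO lungs. At P3 it measured 28.5, 22.9, 24.2 and 27.3 CPM in controls and 33.3, 39.6, 33.9 and 38.5 CPM in CKO lungs. The groups were apart at both stages, at P0 by a narrow gap, and overlapped at E16, where controls reached 43.1 CPM and CKO lungs began at 37.8 CPM. The average change was 0.60 ± 0.12 (adjusted p = 0.00336, edgeR), and the call was lost without the P3 libraries. The other members of that complex, Pes1 (0.22 ± 0.08) and Wdr12 (0.32 ± 0.17), were not called.

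Nop16, a protein of early large-subunit particles, measured 29.8, 30.7, 26.0 and 24.9 CPM in E16 controls and 33.9, 42.7, 45.0 and 34.9 CPM in E16 CKO lungs. At P0 it measured 12.4, 17.5, 20.2 and 17.4 CPM in controls and 33.2, 23.7, 24.3 and 23.6 CPM in CKO lungs. Both stages were free of overlap, while at P3 the lowest CKO library, with 15.2 CPM, lay below the highest control, with 16.1 CPM. The average change of Nop16 was 0.53 ± 0.09 (adjusted p = 0.00062, edgeR). The other called genes were Noc3l (0.45 ± 0.11), Rrp15 (0.40 ± 0.08), the helicase Ddx27 (0.32 ± 0.07) and Ebna1bp2 (0.29 ± 0.07). Grwd1 (0.42 ± 0.14) and the RNA methyltransferase Nop2 (0.34 ± 0.13) had larger changes than some called genes but also larger errors, and were not called. Rrp1b alone had a negative average, -0.10 ± 0.07 (adjusted p = 0.447, edgeR). It measured 43.2 to 56.8 CPM in E16 controls and 42.3 to 51.5 CPM in E16 CKO lungs, 33.7 to 40.1 and 29.6 to 43.1 CPM at P0, and 33.0 to 35.7 and 28.2 to 39.2 CPM at P3. Its genotypes overlapped at each stage.

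Of the 5 nucleolar proteins with several functions, 1 rose on average, against 5.38% of all genes, and the median change was 0.23. It was Ddx21, a helicase that links RNA polymerase I to processing, at 0.44 ± 0.09 (adjusted p = 0.00369, edgeR). Npm1, a histone and ribosomal protein chaperone, measured 395, 322, 415 and 325 CPM in P0 controls and 231, 644, 489 and 437 CPM in P0 CKO lungs. The lowest P0 CKO value of Npm1 was in replicate 1, a library high in thymocyte markers. The other such library, P0 control replicate 3, held the highest P0 control value, 415 CPM. The average change of Npm1, 0.23 ± 0.11, was not called (adjusted p = 0.219, edgeR). The average for Npm1 was called in 3 of 38 alternatives, those without P0 CKO replicate 1. Ncl, which encodes nucleolin, had a mean of 797 ± 73.9 CPM (SD, n = 4) in E16 controls and 849 ± 35.9 CPM in E16 CKO lungs, and an average change of 0.08 ± 0.06 that was not called. At P0 Ncl measured 501, 505, 574 and 461 CPM in controls and 401, 541, 625 and 506 CPM in CKO lungs, with overlap between them. The GTPase Gnl3 (0.27 ± 0.11) and Mybbp1a (0.17 ± 0.10) were not called.

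**Figure D4:**
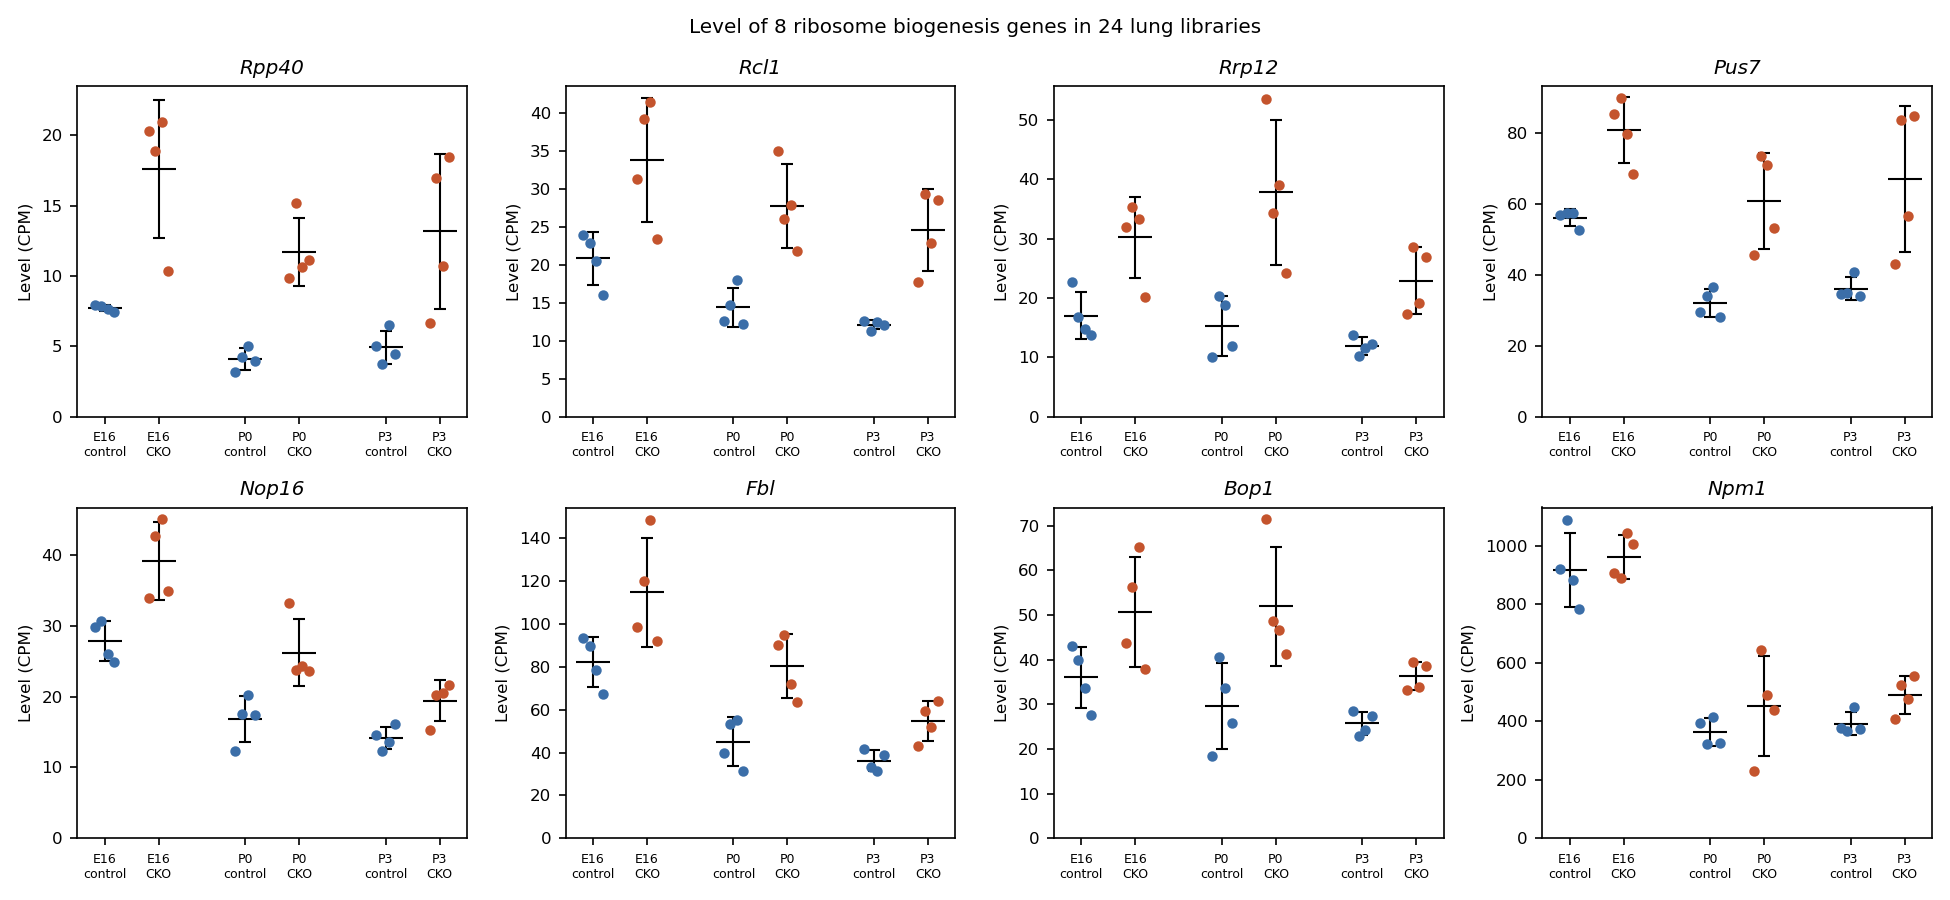
Level in CPM of 8 ribosome biogenesis genes in each library, by stage and genotype (control blue, CKO red), on axes that start at 0, with bars for mean ± SD over 4 libraries. Rpp40 and Pus7 had no overlap between genotypes at any stage, and Npm1 overlapped at P0 and fell from E16 to P0 in both genotypes.

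The genotype differences were not shown to change with stage. In a fit of all 24 libraries, 0 of 57 genes were called for the difference between the P0 and E16 changes, between P3 and P0 or between P3 and E16, by edgeR, DESeq2 or limma-voom, and 0% (edgeR) of 18415 genes were called in either direction. None of the 57 had an unadjusted p under 0.05 in any of the 3, against 1.78% of all genes higher and 1.02% lower for P0 against E16. For P3 against P0 those shares of all genes were 0.912% and 1.38%, and for P3 against E16 0.597% and 0.554%. The Rpp40 change at P0 exceeded that at E16 by 0.31 ± 0.37, and the Rrp12 change by 0.48 ± 0.36. The difference with the smallest unadjusted p among the 57 genes was that of Polr1a between P0 and E16, 0.46 ± 0.24 (unadjusted p = 0.0659, edgeR).

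Promoter windows are shown for Rpp40, Rcl1 and Pus7, which had among the largest average changes, chosen after their values were seen. Each holds the 250 bases before the annotated start, from RefSeq on GRCm38.p6, the patch release of mm10, in the direction of the gene. Capitals mark GC boxes (GGGCGG or CCGCCC, bound by SP family factors) and CCAAT boxes (CCAAT or ATTGG). The Rpp40 window is chr13:35906348-35906597 on the minus strand, and its last 12 bases lie in an annotated exon. The Rcl1 window is chr19:29101125-29101374 on the plus strand, and the Pus7 window is chr5:23783712-23783961 on the minus strand. Pus7 has 2 annotated starts, and the window shown is that of the outer start. The inner one, chr5:23779664-23779913, holds 1 GC box.
Rpp40: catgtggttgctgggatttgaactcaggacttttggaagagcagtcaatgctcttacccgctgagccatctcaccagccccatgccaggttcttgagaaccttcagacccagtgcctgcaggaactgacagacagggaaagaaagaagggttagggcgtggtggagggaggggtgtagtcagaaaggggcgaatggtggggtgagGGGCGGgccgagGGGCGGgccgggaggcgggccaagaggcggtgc
Rcl1: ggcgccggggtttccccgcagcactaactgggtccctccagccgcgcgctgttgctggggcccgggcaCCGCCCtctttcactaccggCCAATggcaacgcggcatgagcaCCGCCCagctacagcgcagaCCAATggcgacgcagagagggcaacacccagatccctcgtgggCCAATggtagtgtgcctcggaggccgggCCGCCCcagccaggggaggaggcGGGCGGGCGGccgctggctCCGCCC
Pus7: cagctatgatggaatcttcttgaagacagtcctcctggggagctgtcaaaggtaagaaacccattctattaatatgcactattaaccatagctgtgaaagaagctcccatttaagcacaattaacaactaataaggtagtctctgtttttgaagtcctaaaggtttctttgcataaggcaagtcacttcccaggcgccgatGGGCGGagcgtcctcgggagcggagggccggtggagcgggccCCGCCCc
The windows shown hold 2 GC boxes for Rpp40, 6 for Rcl1, of which 2 overlap each other, and 2 for Pus7, and CCAAT boxes, 3 in number, in Rcl1 alone.

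The E-box CACGTG, which reads the same on both strands and is bound by MYC, MAX and MXD proteins, was searched for in 300 bases, 250 before and 50 after the start. It was found for 12 of the 51 genes with a RefSeq entry (23.5%), against 8.09% of all 27025 genes in the table. Among the genes that rose on average it was found for 4 of 20, and among the others for 8 of 31. Those 4 sites are shown in 30 bases with the E-box in capitals. The site of Pus7 begins 28 bases after the outer start (chr5:23783666-23783695, minus strand), that of Ltv1 also 28 after it (chr10:13193092-13193121, minus strand), that of Imp4 121 before it (chr1:34439696-34439725, plus strand) and that of Utp20 37 after it (chr10:88826765-88826794, minus strand).
Pus7 site: ggcgcagcgccgCACGTGtgcgagcccggc
Ltv1 site: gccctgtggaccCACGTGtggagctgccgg
Imp4 site: acggtcttagacCACGTGacatcccaaatc
Utp20 site: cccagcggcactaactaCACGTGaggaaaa
A GC box was found for 37 of the 51 genes (72.5%) against 38.2% of all genes, for 17 of 20 that rose and 20 of 31 others. A CCAAT box was found for 22 of the 51 (43.1%) against 41.1% of all genes. The shares of all genes cover all 27025 genes, expressed in these lungs or not, while all 57 members were among the 18415 genes that passed the count filter. Shares among genes that passed the filter were not computed. These matches describe letters in a window and show no binding.

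From E16 to P0 most of the 57 genes fell in control lungs. There 43 of 57 fell and none rose, with 22.3% of all 18415 genes called lower and 25.3% higher (edgeR, adjusted p under 0.05). The median change was -0.59 against 0.05 for all genes, and 55 of the 57 changes were negative. At an unadjusted p under 0.05, 43 were lower and none higher, against 25.2% and 28.8% of all genes. In CKO lungs 30 of 57 fell and none rose, against 20.6% lower and 24.7% higher among all genes, with a median of -0.47 against 0.06. At an unadjusted p under 0.05, 35 of these were lower and none higher, against 23.9% and 28.5% of all genes. Whether the fall differed by genotype is the P0 against E16 difference above, for which no gene was called. Without the 3 libraries high in thymocyte or cartilage markers, 47 genes were called in controls and 35 in CKO lungs, and the share of all genes called there is not given.

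By role, the genes that fell in controls from E16 to P0 were 4 of 5 for RNA polymerase I, 7 of 8 for snoRNPs, 2 of 2 RNA enzymes, 12 of 19 for the 40S and 14 of 18 for the 60S subunit, and 4 of 5 proteins with several functions, where 22.3% of all genes were called lower. The median change was -0.89 for snoRNP genes, -0.51 for 40S genes and -0.56 for 60S genes. Dkc1 (mm10 chromosome X, 75095854 to 75109777) had the largest fall. It measured 82.0, 92.6, 74.9 and 66.3 CPM in E16 controls and 20.8, 27.3, 42.7 and 24.4 CPM in P0 controls. The stages were far apart, and P0 control replicate 3 was the highest of its group. Dkc1 fell by 1.45 on the log2 scale (SE 0.18, adjusted p = 1.65e-06, edgeR) in controls and by 1.53 (SE 0.18) in CKO lungs.

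Npm1 (mm10 chromosome 11, 33152287 to 33163206) measured 919, 1087, 883 and 783 CPM in E16 controls and 395, 322, 415 and 325 CPM in P0 controls. It fell by 1.33 on the log2 scale (SE 0.20, adjusted p = 1.33e-05, edgeR) in controls and by 1.09 (SE 0.20) in CKO lungs. Nop56 (-1.28 ± 0.20) and Nop58 (-1.08 ± 0.18), partners of fibrillarin, fell further in controls than Fbl itself by their point values (-0.87 ± 0.19). Noc3l (-1.20 ± 0.19), Grwd1 (-1.08 ± 0.24), Polr1a (-0.96 ± 0.17) and Nob1 (-0.92 ± 0.16) were also among the larger falls.

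Among the genes that rose in CKO lungs on average, several were not called for the fall from E16 to P0 in controls. Rrp12 (-0.16 ± 0.25), Bop1 (-0.28 ± 0.21), Ltv1 (-0.30 ± 0.17), Nhp2 (-0.31 ± 0.19), Ddx21 (-0.32 ± 0.16) and Rrp9 (-0.33 ± 0.28) were of this kind, while Rpp40 (-0.90 ± 0.27), Pus7 (-0.80 ± 0.18) and Fbl fell. The change from E16 to P0 in controls and the genotype differences share the control libraries, so the values are only set side by side. Imp3 (0.05 ± 0.14) and Ubtf (0.04 ± 0.14) were the genes with positive values in controls, neither was called, and their sign turned with the scaling. Both became negative with scaling by library size only, at -0.03 for Imp3 and -0.06 for Ubtf. Imp3 also became negative, at -0.001 each time, without P0 control replicate 3 and without the 3 libraries high in thymocyte or cartilage markers. Ubtf became negative without E16 control replicate 3 (-0.01) or 4 (-0.05) or P0 control replicate 2 (-0.03).

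**Figure D5:**
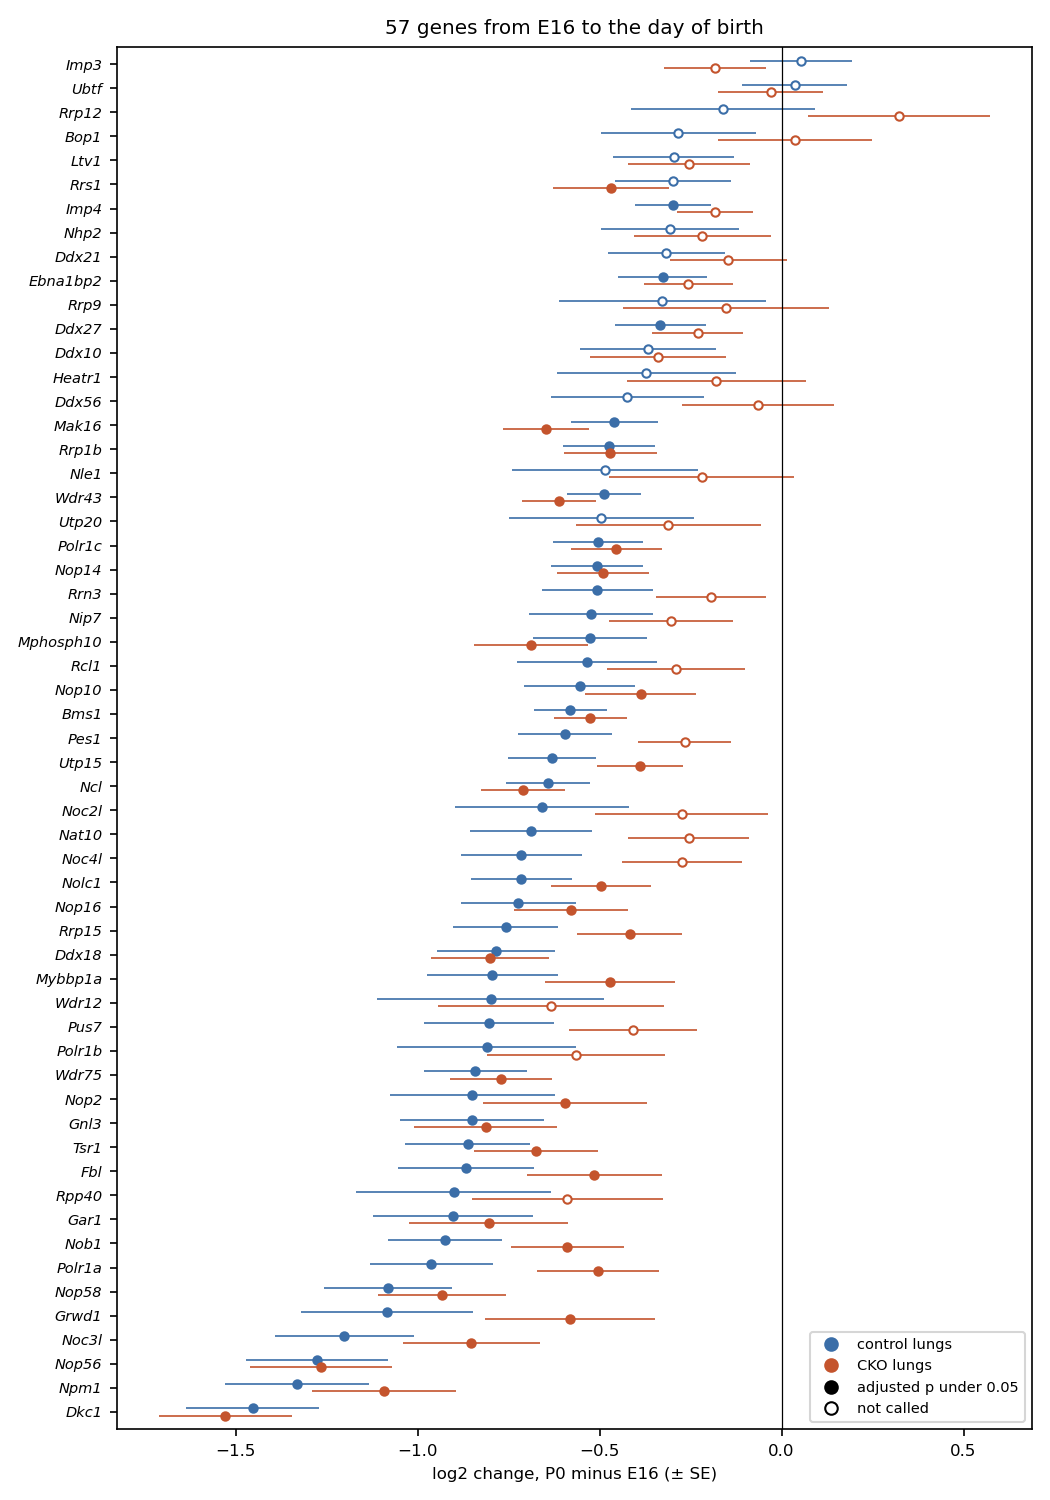
Log2 change of each of the 57 genes from E16 to P0, with SE, in control (blue) and CKO (red) lungs, ordered by the control value. Filled points had an adjusted p under 0.05. In controls 43 genes and in CKO lungs 30 were called lower, and Dkc1 had the most negative value in both.

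Markers of cycling cells fell at the same step. All 15 were called lower from E16 to P0 in controls, with a median of -2.40, and all 15 in CKO lungs, with a median of -2.25. Their summed level was 2907 to 3171 CPM in E16 controls and 2900 to 3679 CPM in E16 CKO lungs, and 317 to 1223 CPM in P0 controls and 358 to 1019 CPM in P0 CKO lungs, with none at 0 in any library. From P0 to P3 in controls all 15 had a positive change, 10 were called higher and the median was 1.17, while the median of the ribosome biogenesis genes was 0.02. Between genotypes averaged over stages, 14 of the 15 had a positive change, 0 were called by edgeR and the median was 0.18. At P3 their summed level was 1279 to 1497 CPM in controls and 1199 to 1840 CPM in CKO lungs, with the lowest value in CKO replicate 1. That library was also the CKO library with the lowest mean of the ribosome biogenesis genes. The part of cycling cells in these results was not tested.

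After birth few of the 57 genes were called. From P0 to P3 in controls, Noc3l rose and Ubtf fell, 1 gene each way, where 4.97% of all genes were called higher and 6.34% lower. Noc3l measured 7.06, 11.8, 16.9 and 11.1 CPM in P0 controls and 16.4, 16.4, 23.5 and 17.4 CPM in P3 controls, and changed by 0.65 ± 0.19 (adjusted p = 0.0317, edgeR). Ubtf measured 161, 190, 161 and 158 CPM in P0 controls and 141, 129, 97.9 and 117 CPM in P3 controls, and changed by -0.47 ± 0.14 (adjusted p = 0.0417, edgeR). The Noc3l stages overlapped through P0 control replicate 3, and those of Ubtf did not overlap. In CKO lungs 0 genes rose and 1 fell, Noc4l by 0.56 on the log2 scale (SE 0.17, adjusted p = 0.0313, edgeR), against 6.15% called higher and 6.9% lower among all genes. Wdr75 (0.39 ± 0.14) and Polr1c (-0.35 ± 0.12) came next in controls and were not called. At an unadjusted p under 0.05, 2 genes were higher and 3 lower in controls, against 12% and 16.5% of all genes, and 4 were higher and 10 lower in CKO lungs, against 13.2% and 17.3%.

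These counts rested on single libraries, and the share of all genes called in each such fit is not given. In controls 0 genes were called without P0 control replicate 2 or 4 or P3 control replicate 3 or 4, and 6 without P0 control replicate 3. Without the following libraries 1 gene was called, namely without E16 control replicate 2 or 3, E16 CKO replicate 2 or 4, P0 control replicate 1, P3 control replicate 2, or P3 CKO replicate 2 or 3. In CKO lungs 0 were called without P0 CKO replicate 1 or P3 CKO replicate 2, 3 or 4, and 2 without E16 CKO replicate 3, P0 control replicate 2 or 4, or P3 CKO replicate 1. There were 3 without P0 CKO replicate 2, 3 or 4, 4 without P0 control replicate 3 and 7 without P0 control replicate 1.

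Other genes of the pathway, which are not among the 57, were counted in the same way. Averaged over stages, 4 of 17 further RNA polymerase I factors were called higher in CKO lungs, 10 of 40 further factors of the small subunit processome and 40S maturation, 7 of 46 of 60S assembly and export, 2 of 26 of RNase P, RNase MRP and the exosome, 4 of 17 other RNA modification enzymes and 2 of 10 of snoRNP assembly, and none was called lower, where 5.38% of all genes were called higher and 3% lower. The counts for RNase P, RNase MRP and the exosome were near that share. Their median changes ran from 0.06 for the modification enzymes to 0.15 for 60S assembly, against 0.26 for the 57 genes and -0.02 for all genes. The largest changes among those called were those of Shq1, an assembly factor of H/ACA particles (0.86 ± 0.12), Wdr46 of the processome (0.79 ± 0.12) and Cd3eap, a subunit of RNA polymerase I (0.78 ± 0.14). The list of RNA polymerase I factors takes in Polr2 genes, whose subunits are shared with other RNA polymerases. Of the 4 called there, 1 was such a gene, Polr2h (0.50 ± 0.11). From E16 to P0 in controls the numbers called lower in the same lists were 7, 24, 23, 12, 11 and 8, with 0, 1, 4, 1, 0 and 0 called higher. In that step 22.3% of all genes were called lower and 25.3% higher.

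Of the 12 genes of the MYC, MAX and MXD network, 1 was called higher in CKO lungs on average and none lower, near the 5.38% and 3% of all genes. It was Mnt, a repressor that pairs with MAX (0.65 ± 0.14, adjusted p = 0.00614, edgeR). Myc (0.16 ± 0.25), Mycn (0.13 ± 0.14) and Max (0.05 ± 0.07) were not called. Of 19 genes of the SIN3 complex, 6 were called higher, among them Ing1 (0.42 ± 0.07), Sap130 (0.40 ± 0.07) and Sin3b (0.26 ± 0.08), and none lower, against the same 5.38% and 3%.

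By position and sequence the 57 genes were spread over 18 chromosomes in the GENCODE annotation, with 3 on chromosome 9, which carries Sin3a. Exons of 21 overlapped exons of a gene on the opposite strand, and the strand setting of the counts is not stated. For 9 of the 57, another transcript matched at 95% or more over at least 300 bases, so that RSEM may have split reads between the copies. Fbl shares 690 such bases with a transcript of Tulp4, which measured 80.9 to 204 CPM. Npm1 has 5 such pseudogenes, the highest at 2.27 CPM in any library, and Pus7 has 2, the highest at 0.145 CPM.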

How the data were processed

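Per the labels' protocols, RNA from whole lungs was made into libraries with an Illumina TruSeq RNA kit. The submitters' processing notes name mm10 as the build, and the tools STAR 2.5.3a and RSEM 1.3.0 as well as edgeR, without their roles. The sources used here do not state annotation or strand. The authors deposited RSEM expected counts for each gene, all of them whole numbers, so that no rounding was needed. Libraries were grouped by the stage and genotype of their titles. They are called biological replicates there, and totals ran from 27.02 to 36.35 M counts.

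CPM used TMM-scaled library sizes. Comparisons used edgeR 4.0.16 in R 4.3.3 (filterByExpr by group, robust dispersions, glmQLFit, glmQLFTest) with Benjamini-Hochberg adjustment over all genes tested and calls at adjusted p under 0.05. The 8 libraries of a stage were fitted alone. The average over stages took 24 libraries with stage as a term, and changes between stages and their differences between genotypes were contrasts of 6 groups. SE is the absolute log2 change over the root of F. Means of log2 CPM used a prior count of 2. Alternatives were other scalings and filters, DESeq2 1.42.0, limma-voom (limma 3.58.1), replicate or identifier prefix blocks, an Xist covariate and libraries left out. Leaving out a stage or the cartilage-high library was added after the data were seen.

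The members, lists and tests were chosen with earlier results of these data known. Named genes were, per genotype comparison, the 4 members with the smallest p, per step between stages in controls the 2 with the smallest p in each direction, 8 members spread over the roles and the 3 with the lowest average. Others were named after their values were seen. The fits were tested on simulated counts, where the fits of single stages missed most 1.5-fold changes and the P0 fit also most 2-fold ones. Each gene was drawn there independently of the others, so this need not hold for genes that vary together. Copies were found with BLAST 2.17.0, and 51 of 57 symbols matched the RefSeq promoter table.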

Additional observations from a re-analysis of the deposited data

Results flagged for a closer look

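In a group of 4 libraries, a library was singled out when its gap to the nearest other was large against the range of the group. This happened in 11 of 132 groups over 22 genes and markers, and chance flags about 5%. P3 control replicate 3 stood above the other P3 controls for Pus7 (40.9 CPM), Dkc1 (43.9 CPM), Npm1 (449 CPM) and Noc3l (23.5 CPM). P0 CKO replicate 1, which was high in thymocyte markers, stood above its group for Nop16 (33.2 CPM) and Rrp1b (43.1 CPM). Ubtf stood out high in E16 CKO replicate 3 (198 CPM), the E16 CKO library highest in erythroid markers, and in P0 control replicate 2 (190 CPM). Pus7 was low in E16 control replicate 4 (52.6 CPM), the E16 control with Xist above 100 CPM. Ddx10 was high in E16 control replicate 2 (52.4 CPM) and Imp3 in P3 control replicate 2 (23.2 CPM).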

How the results depend on the processing

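The number of the 57 genes called from E16 to P0 kept its size under 33 alternatives, from 36 to 47 in controls (37 to 46 with a library left out) and from 23 to 37 in CKO lungs (23 to 37). For the average over stages it was 22 with median-of-ratios scaling, 21 with library size only, 21 with no filter, 30 with DESeq2, 22 with limma-voom, 32 with the Xist covariate, 38 with the identifier prefix block, 36 without the 2 libraries high in thymus markers, 33 without these and P0 CKO replicate 3, 13 without E16 libraries, 18 without P0 libraries and 9 without P3 libraries, and 20 to 32 with a library left out. At E16 it was 9 with DESeq2 and 0 to 5 with a library left out. At P0 it was 4 with DESeq2, 7 in the fit of 24 libraries and 0 with any library left out. At P3 it was 1 with no filter, 11 with DESeq2, 6 with the Xist covariate, 2 in the fit of 24 libraries and 0 to 19 with a library left out. From P0 to P3 in controls it was 1 with library size only, 0 with no filter, 4 with DESeq2, 0 with the 2 groups alone, 7 without the 3 libraries high in thymus or cartilage markers and 0 to 6 with a library left out. In CKO lungs it was 0 with library size only, with no filter, with the 2 groups alone and without those 3 libraries, 2 with the filter of 1 CPM, 8 with DESeq2 and 0 to 7 with a library left out. For the differences between stages it was 0 throughout, with 0 to 0 for a library left out. The share of all genes called under each alternative is not given, so these counts are not set against all genes. The causes were not tested. The sign turned for Imp3 in controls from E16 to P0 with library size only (-0.0302) and without the 3 libraries (-0.00144), with -0.00145 (without P0 control replicate 3) to 0.115 for a library left out. It turned for Ubtf in the same step with library size only (-0.0582), with -0.0459 (without E16 control replicate 4) to 0.150 for a library left out, among them -0.00688 without E16 control replicate 3 and -0.0318 without P0 control replicate 2. It turned for Bms1 on average without P0 control replicate 4 (-0.00111), with 0.0457 as the highest value for a library left out.

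Replicate numbers were not shown to pair the libraries. Deviations of same-numbered libraries correlated by -0.32 to -0.05 at E16, -0.40 to 0.60 at P0 and -0.21 to 0.10 at P3. Libraries that share an identifier prefix, 1 control and 1 CKO lung for each prefix at P0, correlated by 0.02 to 0.60 there, against -0.40 to 0.13 for other pairs. At E16 the ranges were -0.11 to 0.31 and -0.44 to 0.38, and at P3 -0.11 to 0.10 and -0.21 to 0.16. With the prefix block 0 genes were called at each stage. With a replicate block, 23 genes were called on average, 21 of them among the 23 called without it. With the block 0 were called at each stage, 43 in controls and 30 in CKO lungs from E16 to P0, 3 in controls and 2 in CKO lungs from P0 to P3. The lowest level of any of the 57 genes was 3.19 CPM, and the effect of depth on the calls was not tested.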
